A study of Homo sapiens with 24 samples.

Results

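CSMD1, CSMD2 and CSMD3 are 3 very long human genes that make up 1 family of giant membrane proteins, and the H4K20me3 peaks on their spans were compared across the 14 H4K20me3 libraries of the series. The genes were taken as a fixed family, 3 of 19866 protein-coding genes on the primary chromosome sequences, after earlier results of the same peak lists were known. The family was chosen by the share of each span under peaks and the number and position of its peaks in all 14 libraries, so every value of the 3 genes below is a description and no test is given. Shares are of the RefSeq span on hg38 with 2 kb added on each side, and the coordinates below are those of the span itself. CSMD1 runs over 2.06 Mb of chromosome 8 (2935361 to 4994914), near the end of its short arm, and is the 6th longest protein-coding gene in the table. CSMD3 runs over 1.21 Mb of the long arm of the same chromosome (112222928 to 113436939), and CSMD2 over 652 kb of chromosome 1 (33513998 to 34165842). All 3 genes are transcribed towards lower coordinates, so the higher-coordinate end of each span is where its transcription starts. The strand of CSMD2 came from the RefSeq table, and that of CSMD1 and CSMD3 is general knowledge.

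All libraries came from HN-SCC-151, a line derived from a human squamous cell carcinoma of the head and neck that carries no papillomavirus, with a genotype given as wild type. The 4 groups were 3 libraries of cells given A-196 at 2.5 µM, 3 of cells given the solvent DMSO, 4 of cells given siRNAs against SUV420H1 (siSUV420H1) and 4 of cells given control siRNAs (siNC), each treated for 6 days. SUV420H1 (gene symbol KMT5B) is a methyltransferase that acts on lysine 20 of histone H4, and A-196 inhibits it together with its paralog SUV420H2. The mark was mapped by CUT&RUN, in which an antibody guides a nuclease to the marked histones and the DNA it releases is sequenced. The design text speaks of 3 dishes per condition, fewer than the 4 libraries in each siRNA group, so some libraries may share a dish and their spread may be partly technical.

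H4K20me3 is a mark of compacted, silent chromatin, found over repeats, pericentromeric chromatin and zinc finger gene clusters. The CSMD proteins span the membrane once and carry long rows of CUB and Sushi modules, and Sushi modules are also called complement control protein repeats. CSMD1 limits activation of the classical complement pathway in cell experiments, is abundant in brain and in some epithelia, and lies in a stretch of the short arm that squamous carcinomas of the head and neck often delete. CSMD2 is found at synapses of mouse neurons, and CSMD3 is a gene that is often mutated in lung cancer. Copy number and RNA of the 3 genes were not analysed here.

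The values were broad peaks, listed for each library by start and end only. The A-196 lists held 8505 to 13464 peaks and the DMSO lists 8430 to 8921, the siSUV420H1 lists 9325 to 10203 and the siNC lists 13818 to 14675. A-196 replicate 2 stood apart with 13464 peaks, of which 1063 lay on chromosome 8, against 635 and 663 in the other A-196 libraries. Peaks covered 1.70% to 2.72% of all protein-coding gene space in the A-196 libraries and 2.85% to 2.99% in the DMSO libraries. The share was 2.65% to 2.73% in the siSUV420H1 libraries and 3.62% to 3.82% in the siNC libraries. Sequencing depth was not given in the lists, so signal too weak to be called cannot be seen.

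CSMD3 was by far the most covered of the 3 genes, and it had less of its span under peaks in treated cells than in control cells in both arms. Peaks covered 7.39%, 5.91% and 9.03% of the span in A-196 replicates 1 to 3, against 16.4%, 18.6% and 15.4% in the DMSO replicates. The ranges did not overlap, and A-196 replicate 2, the library with the most peaks in the genome, had the least of this gene covered. The mean was 7.44% ± 1.56 with A-196 and 16.8% ± 1.59 with DMSO (SD, n = 3 each), a difference of -9.36 percentage points or -55.7%. Without A-196 replicate 2 the difference was -8.59 points. Of all 19866 genes, 5.51% had less covered length in each A-196 library than in any DMSO library, and 18.8% of the 69 genes of 1 Mb or more did.

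In the siRNA arm peaks covered 12.0%, 14.4%, 11.7% and 13.8% of CSMD3 in siSUV420H1 replicates 1 to 4, against 29.8%, 33.5%, 35.3% and 31.3% in the siNC replicates. Every siSUV420H1 library lay below every siNC library. The mean was 13% ± 1.33 with siSUV420H1 and 32.5% ± 2.42 with siNC (SD, n = 4 each), a difference of -19.5 points or -60.0%. Genes with less covered length in each siSUV420H1 library than in any siNC library made up 6.74% of all genes and 36.2% of those of 1 Mb or more. These shares of genes are background only, since the family was chosen on the same values.

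**Figure D1:**
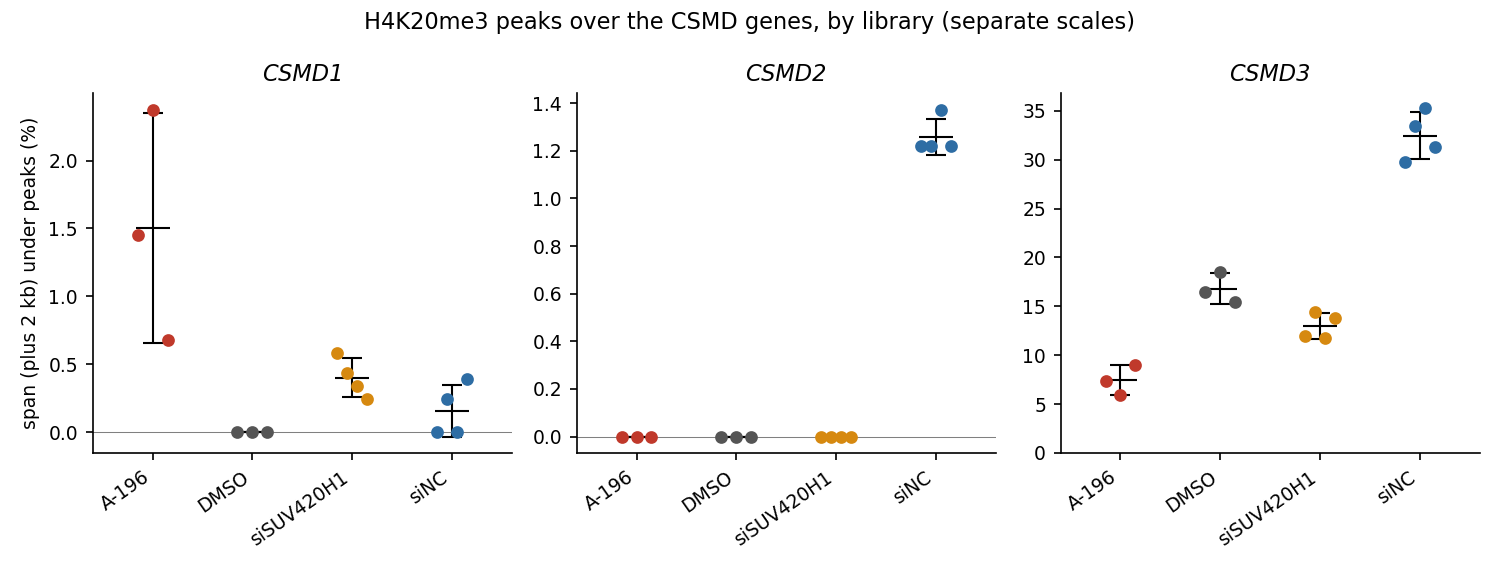
Percent of each gene's span, with 2 kb on each side, under H4K20me3 peaks in each library (points), with the mean and SD of each group (black bars), on a separate vertical scale for each gene. CSMD3 reached 35.3% in a siNC library, CSMD1 no more than 2.37% in any library, and CSMD2 had peaks in siNC libraries alone.

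Peaks also covered less gene space as a whole in treated cells, so CSMD3 was set against that level in the same library. Its span was covered 3.55 ± 1.20 times as densely as all gene space in A-196 libraries and 5.80 ± 0.606 times in DMSO libraries (SD, n = 3 each). The ratio was 4.84 ± 0.529 with siSUV420H1 and 8.72 ± 0.415 with siNC (SD, n = 4 each). In both arms the ranges of this ratio did not overlap, from 2.18 to 4.35 with A-196 against 5.41 to 6.50 with DMSO, and from 4.39 to 5.39 with siSUV420H1 against 8.24 to 9.23 with siNC. CSMD3 was thus lower in treated cells also relative to the gene space of the same libraries.

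The number and width of the peaks on CSMD3 were set side by side in each arm. In A-196 libraries 6, 9 and 7 peaks lay on the gene, against 8, 10 and 9 in DMSO libraries, so the numbers overlapped. The widest of these peaks measured 48, 13 and 51 kb in A-196 replicates 1 to 3, against 117, 116 and 116 kb in the DMSO replicates. The widest peak was thus narrower in every A-196 library, while the median width of the peaks on the gene overlapped, at 7.5 kb ± 0.866 with A-196 and 8.33 kb ± 1.89 with DMSO (SD, n = 3 each). Over all peaks in the genome, the median width was 6 to 7 kb in A-196 libraries and 9 to 10 kb in DMSO libraries. In the siRNA arm the numbers did not overlap, with 9, 12, 9 and 10 peaks in siSUV420H1 libraries against 17, 17, 20 and 17 in siNC libraries, and the widest measured 73 kb ± 14.9 against 149 kb ± 19.9 (SD, n = 4 each). The siNC lists also held more peaks in all. Scaled to the number of peaks in each library, the mean differences were -3.23 peaks between A-196 and DMSO and -2.81 between siSUV420H1 and siNC. Unscaled they were -1.67 and -7.75. On the scaled measure the ranges overlapped in the siRNA arm and did not in the inhibitor arm. siSUV420H1 replicate 2, with 12 of its 10203 peaks on the gene, stood above siNC replicate 2, with 17 of 14577.

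**Figure D2:**
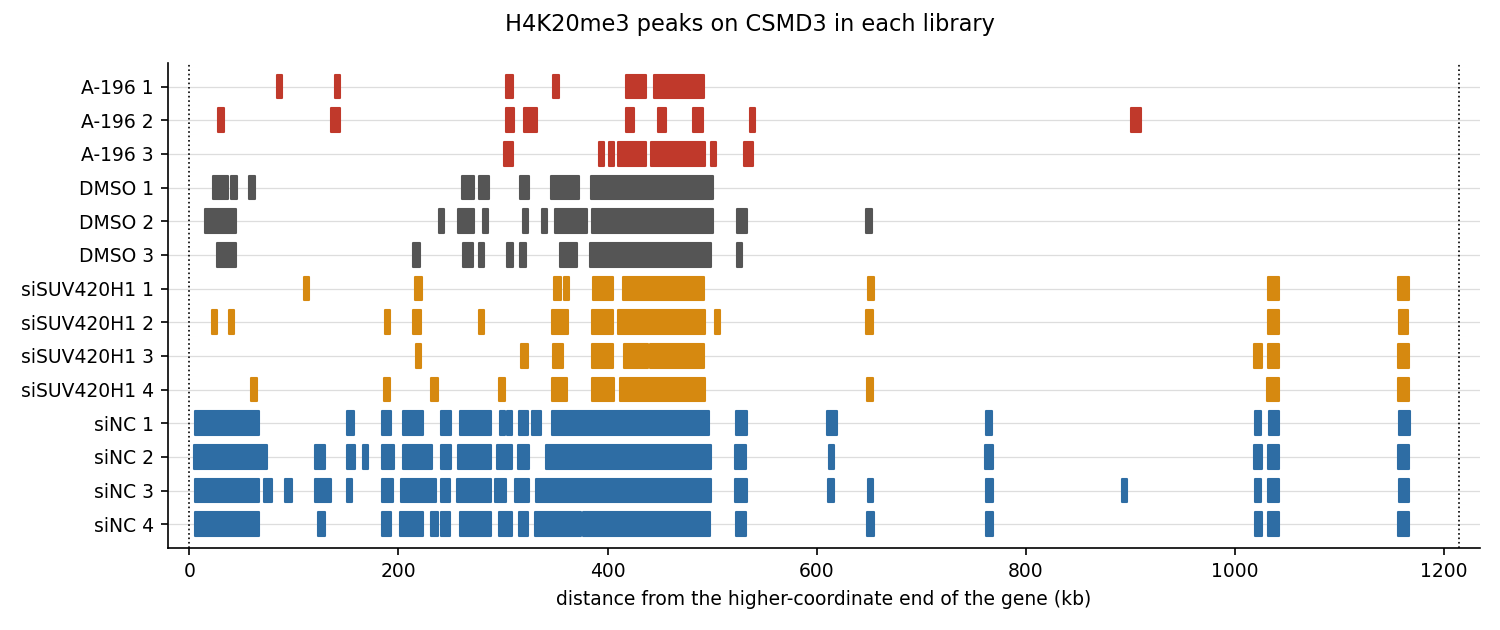
Peaks on CSMD3 (bars) in each of the 14 libraries, placed by their distance in kb from the higher-coordinate end of the gene, where transcription starts; dotted lines mark the ends of the span. The central domain between 385 and 497 kb, defined as covered in all 7 control libraries, was covered over 24 to 88 kb in A-196 and 94 to 103 kb in siSUV420H1 libraries.

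One domain of CSMD3 held peaks in all 14 libraries. The stretch from 112940001 to 113052000 of chromosome 8, 112 kb long and 385 to 497 kb from the transcription start, was defined as the longest run of bases covered in all 7 control libraries, so that its full coverage there, and no more than that in treated ones, follows from the choice. Each control library covered it with 1 peak. A-196 libraries kept 67, 24 and 88 kb of it in 2, 3 and 4 peaks, a mean of 59.7 kb ± 32.6 (SD, n = 3). siSUV420H1 libraries kept 96, 103, 94 and 102 kb, a mean of 98.8 kb ± 4.43 (SD, n = 4). Its coverage varied little between siSUV420H1 libraries and widely between A-196 libraries, lowest in replicate 2. Bases covered in all 14 libraries came to 24 kb of the whole gene, in 3 runs of 9, 8 and 7 kb (112946001 to 112955000, 112981001 to 112989000 and 113012001 to 113019000), all inside this domain.

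A second block lay near the transcription start of CSMD3. It was defined as the run covered in all 4 siNC libraries nearest to the start, 113370001 to 113431000, 61 kb long and 5.94 kb from the start at its near edge, so its full coverage in siNC libraries follows from the choice. In siSUV420H1 libraries 0, 10, 0 and 6 kb of it were covered, a mean of 4 kb ± 4.90 (SD, n = 4). A-196 libraries covered 0, 5 and 0 kb of the same stretch, and DMSO libraries, which did not set its edges, 26, 30 and 18 kb. Treated cells thus had 6.56% of this block covered with siSUV420H1 and 2.73% with A-196, while 88.2% and 53.3% of the central domain was covered in the same groups. The control levels were unlike, since DMSO libraries covered 40.4% of this block and 100% of the central domain, and siNC libraries 100% of both.

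Cut into 10 equal parts from the transcription start, parts 1 to 5 of CSMD3 held 96.7% of its covered length with A-196 and 99.0% with DMSO, and 83.3% with siSUV420H1 and 89.3% with siNC. The fourth part was the densest in all 4 groups, at 43.9% with A-196, 92.3% with DMSO, 75.7% with siSUV420H1 and 99.6% with siNC. The third part stood at 11.8% with A-196 against 35.4% with DMSO, and at 14% with siSUV420H1 against 73.4% with siNC. The second part differed in the siRNA arm, at 7.83% with siSUV420H1 and 44.0% with siNC, and was low with A-196 and DMSO alike, at 3.57% and 2.98%. In parts 9 and 10, 2 narrow peaks were present in all 8 libraries of the siRNA arm and in none of the 6 of the inhibitor arm. Their shared stretches, 112272001 to 112280000 (8 kb) and 112395001 to 112404000 (9 kb), were defined as covered in all 8, and no A-196 or DMSO library had a base of them covered.

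**Figure D3:**
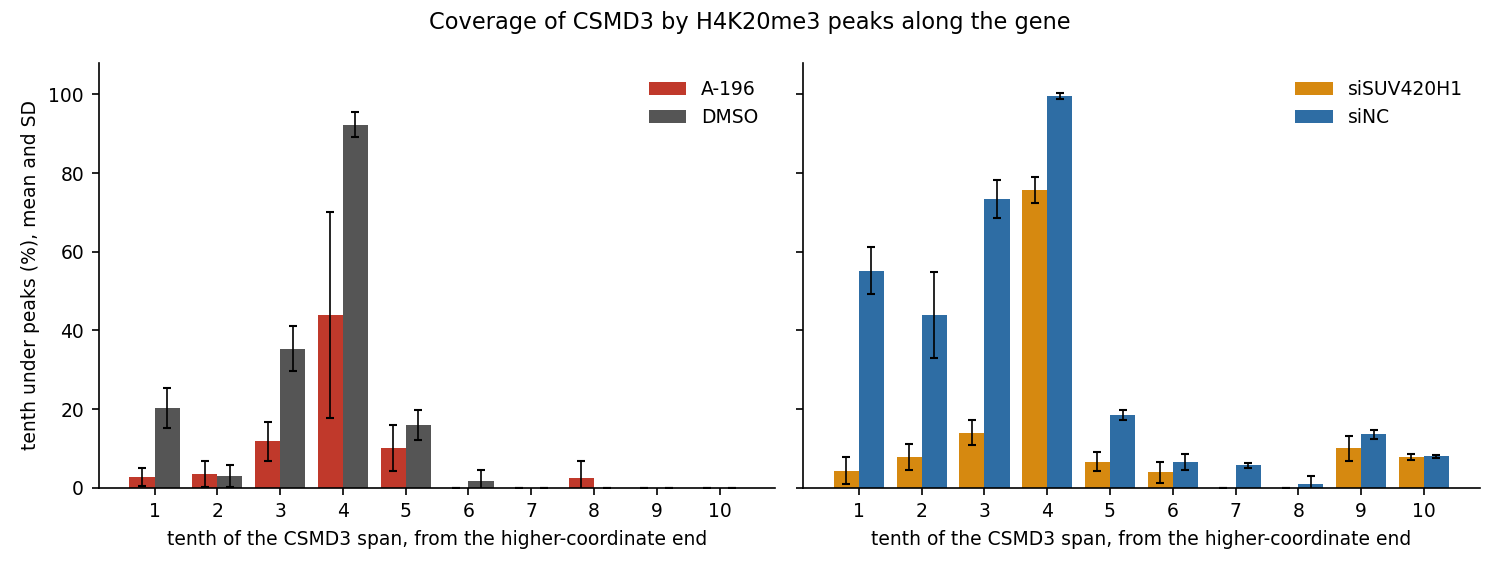
Percent under peaks of each of 10 equal parts of the CSMD3 span, counted from the higher-coordinate end, as mean (bars) and SD (lines) over 3 libraries each of A-196 and DMSO and 4 each of siSUV420H1 and siNC. The fourth part stood highest in all 4 groups, and the first 3 parts were low in siSUV420H1 and high in siNC libraries.

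Stretches of CSMD3 covered in every control library were followed into the treated ones. By this choice treated libraries could cover them as fully or less, never more. Of 7 such stretches in DMSO cells (158 kb), 1 had some coverage in all A-196 libraries, 2 in some and 4 in none. These 7 ran from 1 kb to 114 kb, and each was counted alike. Of 14 stretches in siNC cells (329 kb), 4 had some coverage in all siSUV420H1 libraries, 7 in some and 3 in none. The stretches without any coverage were short, 31 kb in all with A-196 and 23 kb with siSUV420H1. The mean Jaccard index on the gene, the shared bases over the union for a pair of libraries, was 0.368 among A-196 libraries and 0.714 among DMSO libraries, and 0.706 among siSUV420H1 and 0.821 among siNC libraries. The A-196 value rests on replicate 2, and the pair of replicates 1 and 3 alone had 0.587.

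From high to low, the share of CSMD3 under peaks stood in the order siNC, DMSO, siSUV420H1 and A-196, and the ranges of neighbours in this order did not overlap (lowest DMSO value 15.4%, highest siSUV420H1 value 14.4%). The lists of the 2 arms were called against different IgG libraries, so siNC and DMSO cells differ in more than the reagent and the 2 effects cannot be told apart. The 1 Mb beyond the transcription start of CSMD3, which holds no protein-coding gene, had 3.07% ± 0.252 under peaks with A-196 and none with DMSO (n = 3 each). The same stretch had 4.48% ± 1.91 with siSUV420H1 and 14.4% ± 2.06 with siNC (SD, n = 4 each). In A-196 cells the gene thus had less coverage than in DMSO cells while the ground beyond its start had more. The 1 Mb beyond the far end had 3.73% ± 0.451 with A-196 and 2.40% ± 1.06 with DMSO, with overlapping ranges, and 4.4% ± 0.909 with siSUV420H1 against 17.3% ± 1.53 with siNC.

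CSMD1, the longest of the family, was nearly bare of the mark. In A-196 replicates 1 to 3, 5, 8 and 2 peaks covered 30, 49 and 14 kb of the gene, against no peak in any DMSO library. All 3 A-196 libraries lay above the DMSO libraries, and replicate 2 was highest. The mean share of the span was 1.5% ± 0.849 with A-196 and 0 with DMSO (SD, n = 3 each), or 1.07 percentage points without A-196 replicate 2. The gene met the rule for a gained gene, with at least 200 bp under peaks in every A-196 library and in no DMSO library, as did 0.81% of all protein-coding genes and 15.9% of those of 1 Mb or more. By covered length, 1.09% of all genes were higher in each A-196 library than in any DMSO library. The count behind the first share, 161 genes, was 348 without A-196 replicate 1, 207 without replicate 2 and 441 without replicate 3. Leaving out a library can only raise this count, and a gene that met the rule, such as CSMD1, must still meet it. Without the peaks narrower than the arm's median of 8 kb, 23 genes met the rule, CSMD1 among them, and the CSMD1 difference was 0.404 points. The median peak width was 6 to 7 kb in A-196 libraries and 9 to 10 kb in DMSO libraries. This cut therefore took out a larger part of the A-196 peaks, which lowers gains by construction.

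The peaks on CSMD1 in A-196 cells were scattered and of the usual width for their libraries. They measured 5 to 9 kb, the narrowest that the lists hold being 5 kb, and none reached 20 kb. Their median width was 6, 6 and 7 kb in replicates 1 to 3, the same as over all peaks of each library. They lay at 14 sites, of which 13 were found in 1 A-196 library and 1 in 2 (3099001 to 3109000), and no base was covered in all 3. The mean Jaccard index on the gene was 0.0427 among A-196 libraries, against 0.368 for CSMD3 in the same libraries, and without replicate 2 the values were 0.128 and 0.587. Peaks that cover little of a span, as on CSMD1, also overlap less often at random. In 9 of the 10 equal parts of the span at least 1 A-196 library had a peak. The number of peaks per Mb was 2.42, 3.88 and 0.969 on CSMD1, beside 1.73, 3.30 and 1.77 over all genes of 1 Mb or more in the same A-196 libraries. Peaks were thus denser on CSMD1 than on that class in A-196 replicates 1 and 2 and sparser in replicate 3. In DMSO libraries those genes had 1.12 to 1.25 peaks per Mb and CSMD1 had none.

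In the siRNA arm CSMD1 had 2, 1, 1 and 1 peaks in siSUV420H1 replicates 1 to 4, covering 12, 9, 7 and 5 kb. siNC replicates 1 to 4 had 0, 1, 0 and 1 peaks, covering 0, 5, 0 and 8 kb. The groups overlapped, at 0.400% ± 0.145 of the span with siSUV420H1 and 0.157% ± 0.191 with siNC (SD, n = 4 each). These peaks fell at 3 sites, and 2 of the sites recurred, each in 2 siSUV420H1 libraries and 1 siNC library (3666001 to 3675000 and 4171001 to 4178000). None of the 17 sites on CSMD1 held peaks from both arms, whereas 9 of the 22 sites on CSMD3 did. The 1 Mb beyond the lower end of CSMD1 had 1.97% ± 0.981 under peaks with A-196 and 1.10% ± 0.173 with DMSO, and 1.33% ± 0.0500 with siSUV420H1 and 1.13% ± 0.0500 with siNC.

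**Figure D4:**
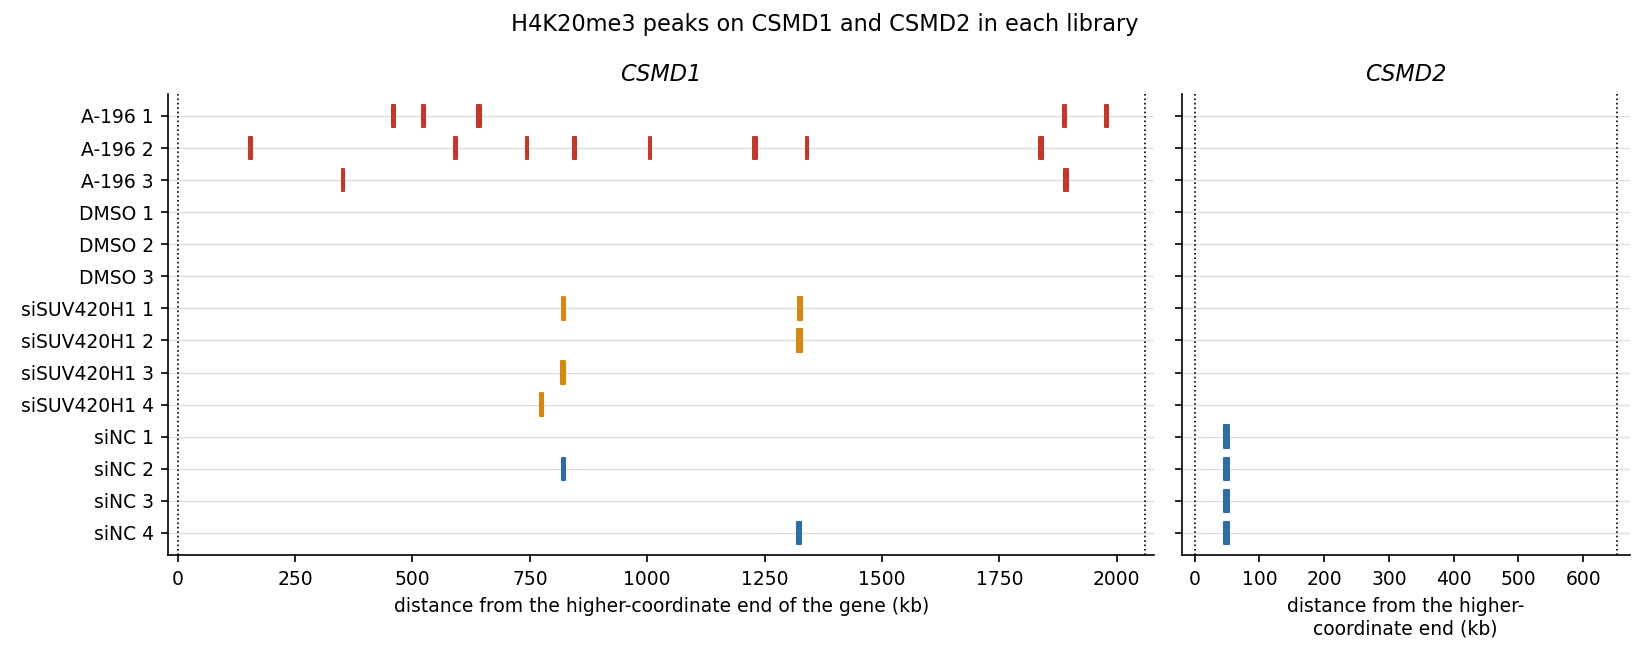
Peaks (bars) on CSMD1 (left) and CSMD2 (right) in each of the 14 libraries, by distance in kb from the higher-coordinate end of each gene; dotted lines mark the ends of the spans. The A-196 peaks on CSMD1 lay at 14 sites with no base shared by all 3 libraries, and the only site on CSMD2 was present in all 4 siNC libraries.

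Set side by side in the same libraries, CSMD1 had less of its span under peaks than CSMD3 in all 14. CSMD1 minus CSMD3 was -5.94 percentage points ± 2.41 in A-196 libraries and -16.8 ± 1.59 in DMSO libraries (SD, n = 3 each). It was -12.6 ± 1.39 in siSUV420H1 libraries and -32.3 ± 2.46 in siNC libraries (SD, n = 4 each). The gap was narrower in treated cells of both arms, and most of that came from CSMD3. Between A-196 and DMSO the differences of the 2 genes had opposite signs, 1.5 points for CSMD1 and -9.36 points for CSMD3. By number of peaks they came close in A-196 replicates 1 and 2, with 5 on CSMD1 and 6 on CSMD3 in replicate 1 and 8 and 9 in replicate 2, and lay further apart in replicate 3, with 2 and 7. The 2 genes lie on opposite arms of 1 chromosome, whose protein-coding gene space had 2.80% ± 0.816 under peaks with A-196 and 3.23% ± 0.124 with DMSO, and 3.31% ± 0.177 with siSUV420H1 and 4.84% ± 0.180 with siNC.

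CSMD2 carried 1 short peak, and only in control siRNA cells. Peaks covered 0 kb of the gene in each siSUV420H1 library, against 8, 8, 9 and 8 kb in siNC replicates 1 to 4. No A-196 or DMSO library had a peak on the gene. The peak of the siNC cells lay at 34112001 to 34120000 of chromosome 1 in all 4 libraries, 1 kb longer in replicate 3, and its near edge was 44.8 to 45.8 kb inside the gene from its start. The gene was thus marked in every siNC library and in no siSUV420H1 library, as were 2.98% of all protein-coding genes. When peaks narrower than the arm's median were dropped, that of siNC replicate 3 alone was left, and the gene no longer met this rule. The stretch just before the start of CSMD2, the promoter side that the peak does not reach, held no peak in any of the 14 libraries and is shown to place the gene's start. It is given 5′ to 3′ on the reverse strand from RefSeq (GRCh38.p14, chr1:34165843-34166092), with each CG dinucleotide, the site of DNA methylation, in capitals.
CSMD2 start: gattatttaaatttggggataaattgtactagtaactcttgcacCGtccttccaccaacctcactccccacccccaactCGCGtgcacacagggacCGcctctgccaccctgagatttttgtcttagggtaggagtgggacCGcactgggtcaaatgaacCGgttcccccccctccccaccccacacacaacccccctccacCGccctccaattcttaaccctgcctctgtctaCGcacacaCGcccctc
The window holds 9 CG dinucleotides in 250 bases, counted on the strand shown, and 54.1% of the 35116 RefSeq start windows of this length hold as many or more. A second RefSeq start window of CSMD2, 34165231 to 34165480, holds 23, and 25.8% of windows hold as many or more. It also lay under no peak in any library. No start window of the other family members was used.

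Around CSMD2, 9 of 30 protein-coding genes within 1 Mb were marked in at least 1 library. The share of all genes so marked is not given here, so whether this count is high or low cannot be said. Several of them had peaks in all libraries of the siRNA arm where CSMD2 did not. PHC2, a Polycomb group gene, had 9.5 kb ± 0.577 with siSUV420H1 and with siNC and 0 kb in the A-196 and DMSO libraries. ZSCAN20, a zinc finger gene, had 7.25 kb ± 1.26 with siSUV420H1 and 8.75 kb ± 0.500 with siNC, and C1orf94, which begins next to CSMD2, 8.25 kb ± 0.500 and 6.50 kb ± 1.73 (SD, n = 4 each). GJB5, a connexin gene of the epidermis, had 0 kb in siSUV420H1 libraries and 3.70 kb ± 0.500 in siNC libraries. Like CSMD2 it was marked in every siNC and no siSUV420H1 library, as were 2.98% of all protein-coding genes. ZNF362 was marked in 1 of 4 siSUV420H1 libraries and in all 4 siNC libraries, and in 1 of 3 A-196 libraries and all 3 DMSO libraries. Of the 3 protein-coding genes within 1 Mb of CSMD1 none was marked in any library, and CSMD3 has no protein-coding neighbour within that distance.

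Among the 69 protein-coding genes of 1 Mb or more, CSMD3 stood near the top in all 4 groups, and CSMD1 was above the median with A-196 and below it in the siRNA arm. The median share of span under peaks over these genes was 0.737% with A-196 and 0 with DMSO, and 0.835% with siSUV420H1 and 0.976% with siNC. By this share CSMD3 ranked 4th with A-196 and 2nd with DMSO, and 3rd with siSUV420H1 and 1st with siNC. CSMD1 ranked 23rd with A-196, among the 36 genes listed at 0 with DMSO, 43rd with siSUV420H1 and 49th with siNC. Its direction with A-196 was that of most of the class, since 41 of the 69 genes had a higher mean with A-196 than with DMSO and 20 a lower one, with a median difference of 0.149 points. The difference of CSMD3 was the third most negative of the class between A-196 and DMSO, after LRMDA (-12.8 points) and NRG1 (-10.7 points). Between siSUV420H1 and siNC it was the most negative of the class, ahead of PCDH15 (-9.35 points). These ranks rest on the values by which the genes were chosen and are given as a description.

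**Figure D5:**
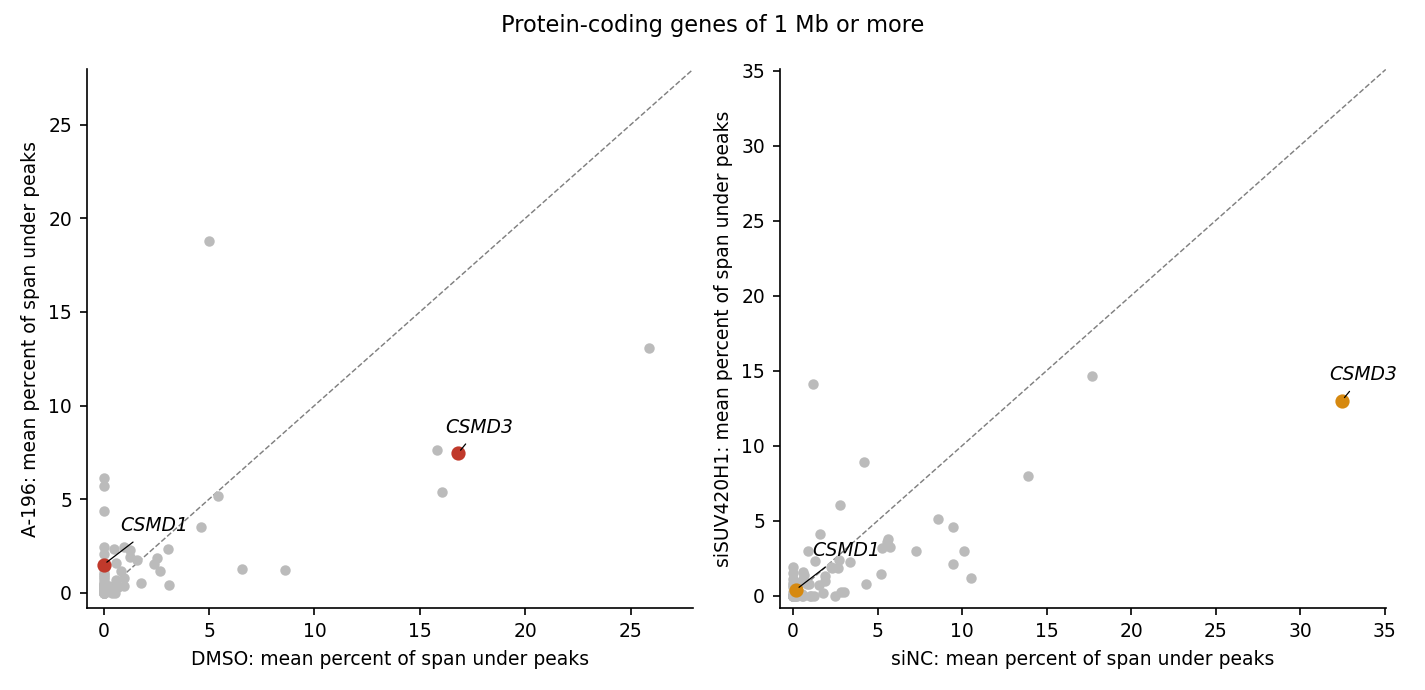
Mean percent of span under peaks for the 69 protein-coding genes of 1 Mb or more, A-196 against DMSO (left) and siSUV420H1 against siNC (right), with CSMD1 and CSMD3 in colour and the line of equal values dashed. CSMD3 lay well below the line in both panels, at 7.44% and 16.8% on the left and 13% and 32.5% on the right, and CSMD1 lay near the origin.

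Other genes of at least 500 kb with a like pattern over the 14 libraries were found by Pearson's r of the share of span under peaks among 250 genes. The points share their libraries, which differ in how much was called, so r is given without a test. For CSMD3 the closest included CCSER1 (r = 0.989), GALNT13 (0.974), MGAT4C (0.968) and MAPK10 (0.951), all 4 highest in siNC cells. CCSER1 had 0.427% ± 0.479 of its span under peaks with A-196 and 3.10% ± 0.527 with DMSO, and 2.14% ± 0.503 with siSUV420H1 and 9.46% ± 0.752 with siNC. The order of the 4 groups was that of CSMD3 at a much lower level. For CSMD1 the closest were PHACTR1 (r = 0.953), NELL1 (0.932), PDE1C (0.932), GALNT17 (0.929) and KAZN (0.927). Each of these 5 had no peak in any DMSO library, and all had their highest mean in A-196 cells. For CSMD2 they included ERC2 (r = 0.988), PCDH15 (0.983), LRP1B (0.980) and C12orf42 (0.965), of which ERC2 had peaks in siNC libraries alone (0.674% ± 0.134).

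Genes that share the Sushi module or act in complement were described next, from 2 lists chosen for the family's modules and function with earlier results of these data known. Of 27 relatives and regulators apart from the CSMD genes, 4.67 ± 1.15 were marked in A-196 libraries and 4.33 ± 0.577 in DMSO libraries, with none gained and none lost. In the siRNA arm 4 were marked in each siSUV420H1 library and 5.5 ± 1 in siNC libraries, with 1 of 27 lost, beside 2.98% of all protein-coding genes. That gene was CR1, the complement receptor for C3b and C4b, at 0 kb in each siSUV420H1 library against 8, 9, 8 and 10 kb in the siNC libraries. In the inhibitor arm CR1 kept peaks in all libraries, with 5, 9 and 7 kb in A-196 cells and 5, 12 and 8 kb in DMSO cells. Its neighbour CR1L had 1.70 kb in each siSUV420H1 library against 14 kb ± 3.59 with siNC. That 1.70 kb lay wholly in the 2 kb added beyond the gene's higher-coordinate end. By covered length, 2 of 27 were lower in each siSUV420H1 library than in any siNC library, beside 6.74% of all genes. Between A-196 and DMSO 3 of 27 were lower in this way, SUSD1 among them, beside 5.51% of all genes. None of the 27 was higher in this way in either arm. SUSD1, another Sushi gene, was the most covered of this list, with 49.2 kb ± 2.00 with A-196 and 82.2 kb ± 4.36 with DMSO, and overlapping values of 44.0 kb ± 4.19 with siSUV420H1 and 47.5 kb ± 4.99 with siNC.

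Of 23 complement components, 3.33 ± 0.577 were marked in A-196 libraries and 4 in each DMSO library, and 2.50 ± 0.577 in siSUV420H1 libraries and 3 in each siNC library. C9, a pore-forming component, was lost with A-196, at 0 kb in all 3 libraries against 1.86, 7.86 and 2.86 kb in the DMSO libraries. With siSUV420H1 it was gained, at 5, 1.86, 5 and 7 kb against 0 kb in all 4 siNC libraries, as were 0.342% of all protein-coding genes. The 1.86 kb in DMSO replicate 1 and in siSUV420H1 replicate 2 lay wholly in the 2 kb added beside the gene. Neither call for C9 would hold for the gene without this flank. MASP1, a protease that starts the lectin pathway, was at 0 kb in all siSUV420H1 libraries against 7, 6, 9 and 9 kb with siNC. In the inhibitor arm it had 10, 16.7 and 16 kb with A-196 against 2.72, 1.72 and 1.72 kb with DMSO. The DMSO values of 1.72 kb lay wholly in the 2 kb added beside the gene. By covered length, 1.09% of all genes were higher in each A-196 library than in any DMSO library, and 2.98% were lost with siSUV420H1. Those higher in each siSUV420H1 library than in any siNC library, as C9 was, made up 2.08%. The values of C9 and MASP1 thus went opposite ways in the 2 arms, and the difference between the arms was not tested. Lost genes made up 1.78% of all protein-coding genes with A-196 and 1.45% of those of 1 Mb or more.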

How the data were processed

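CUT&RUN for H4K20me3 gave 14 deposited peak lists, and the other 10 of the 24 samples (IgG, H3K4me3 and H3K27me3) were not analysed here. The build was hg38, and bedtools 2.30.0, Picard 2.27.3, cutadapt 4.4 and Bowtie were used, per the submitters' processing notes. The names of the deposited lists say that duplicates were removed and that each library was set alone against 1 IgG library, a different one in each arm. The caller is not given in the sources used here. Deposited values are peak starts and ends on a 1000 bp grid, at least 5 kb wide and 2 kb apart, without scores or counts.

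Covered bases and peaks were computed with Python 3.11.15 and numpy 2.4.6 for each RefSeq span plus 2 kb. Genes on scaffolds (190 of 20056) were left out, as in an earlier analysis of these lists. A gene was marked from 200 bp. Interval code was tested on simulated peaks. Named genes were the 3 members, the 5 most alike per member, marked neighbours within 1 Mb, and gained or lost genes of the 2 lists; others were named after their values were seen. Some of the most alike genes are not reported here. Members and lists were chosen with earlier results of these data known. Alternatives covered flanks, peak width and merging, widest peaks only, scaling, medians, the smallest overlap and single libraries left out.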

Additional observations from a re-analysis of the deposited data

Results flagged for a closer look

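Beyond the transcription start of CSMD3, every A-196 library had more of the next 1 Mb under peaks than every DMSO library (3.07 percentage points), and every siSUV420H1 library had less than every siNC library (-9.93 points). C9 had less covered length with A-196 than with DMSO (-4.19 kb) and more with siSUV420H1 than with siNC (4.72 kb). In DMSO replicate 1 and siSUV420H1 replicate 2 the coverage of C9 lay only in the 2 kb added beside the gene. MASP1 had more with A-196 (12.2 kb) and less with siSUV420H1 (-7.75 kb). None of these 3 differences between the arms was tested.

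In 3 cases 1 library differed while the other 3 of its group were tied, so that any other value would have stood apart, and each difference is a step of whole peaks or of 1 kb. These are descriptions, not tests. siSUV420H1 replicate 1 had 2 peaks on CSMD1 where the other siSUV420H1 libraries had 1. siNC replicate 3 had 20 peaks on CSMD3 where the others had 17, and 1.37% of CSMD2 under peaks where the others had 1.22%.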

How the results depend on the processing

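None of the 254 values computed under other settings reversed a direction, and 23 moved beyond the spread between libraries or, for counts of genes, by over 1.5 times. Many of the 254 could not have reversed. Counts of genes have no sign, and CSMD2 had no peak in the inhibitor arm. Leaving out 1 library also cannot reverse a difference between groups that do not overlap. No paired analysis was possible because the values come from no test, and the labels do not say that a replicate number marks a shared dish or day. Without the peaks narrower than the arm's median, a cut that took out a larger part of A-196 than of DMSO peaks, 23 genes were gained with A-196. CSMD1 differed by 0.404 points and 1 peak between A-196 and DMSO, and CSMD2 by -0.343 points and -0.25 peaks between siSUV420H1 and siNC. CSMD1 minus CSMD3 was then -15.0 points with DMSO, -10.2 with siSUV420H1 and -29.0 with siNC. Scaled to the covered gene space or number of peaks of each library, CSMD3 differed by -5.73 points and -3.23 peaks between A-196 and DMSO and by -12.4 points and -2.81 peaks between siSUV420H1 and siNC, and CSMD2 by -1.08 points and -0.847 peaks. CSMD1 minus CSMD3 was then -14.8 points with DMSO, -15.0 with siSUV420H1 and -27.8 with siNC. With the same number of widest peaks in each library, CSMD3 differed by -16.7 points and -3 peaks between siSUV420H1 and siNC, and CSMD1 minus CSMD3 was -29.0 points with siNC. Leaving out 1 library gave 168 to 441 genes gained and 397 to 552 lost with A-196, counts that can only rise in this way. It gave 1.07 to 1.91 points for CSMD1 and -10.2 to -8.48 points for CSMD3 between A-196 and DMSO. The cause of these shifts was not tested beyond the construction of each setting.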

Other observations

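Some peaks on the 3 genes overlapped other annotated RefSeq genes. The peak on CSMD2 in siNC cells covered RNA5SP42, a pseudogene of 5S ribosomal RNA (34112949 to 34113063 of chromosome 1). The block near the transcription start of CSMD3 covered RPL18P7, a ribosomal protein pseudogene, and another site covered the long non-coding RNA LOC107986966 in 6 libraries. On CSMD1, 3 sites of A-196 libraries overlapped LOC105377785, LOC105377789 and the pseudogene PAICSP4, each in 1 library.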
